A study of Mus musculus with 4 samples.

Results

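The miR-29 family is a set of related microRNAs, short RNAs of about 22 bases that guide the silencing machinery to matching messenger RNAs. Its members were taken by name: every read that the authors assigned to a single name, mmu-miR-29a, mmu-miR-29b or mmu-miR-29c (written below without the species prefix), or to one of the star arms miR-29a*, miR-29b-1*, miR-29b-2* and miR-29c*. A star arm is the strand of the hairpin that usually accumulates less. This gave 7 of the 628 arms with reads in the series, 3 mature and 4 star. The libraries came from NIH-3T3, an established line of mouse embryo fibroblasts. The 2 groups were cells given 500 nM thapsigargin for 24 h and untreated control cells, with 2 libraries each. Thapsigargin blocks the pump that fills the endoplasmic reticulum with calcium and is widely used to provoke endoplasmic reticulum stress. Both groups were grown to confluency as a single cell line with no other alteration named. The labels do not say whether replicates came from separate cultures, so p-values measure only the spread between these libraries.

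In mammals the family is made from a pair of gene clusters, one with mir-29a and mir-29b-1 and one with mir-29b-2 and mir-29c. The mature strands share a seed, the stretch near the 5′ end that selects targets, and in fibroblasts they are known for repressing collagens and other extracellular matrix genes. They also target DNA methyltransferases. miR-29b is identical from both clusters, so for miR-29b only the star arms tell the clusters apart.

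The mature sequences show how little separates the paralogues. They are the RefSeq sequences (build GRCm38.p6), for which all 7 arms had an entry, with the seed (bases 2 to 8) in capitals.
miR-29a: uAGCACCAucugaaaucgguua
miR-29b: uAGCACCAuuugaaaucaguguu
miR-29c: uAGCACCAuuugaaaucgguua
miR-29a*: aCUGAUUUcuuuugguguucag
miR-29b-1*: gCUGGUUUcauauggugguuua
miR-29b-2*: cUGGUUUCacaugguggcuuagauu
miR-29c*: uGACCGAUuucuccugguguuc
The 3 mature arms share the seed AGCACCA, whereas each of the 4 star arms has a seed of its own. Counting from 1 at the 5′ end, miR-29a and miR-29c differ at a single base, C10U. miR-29a and miR-29b differ over 22 compared bases by C10U, G18A, U21G and A22U, and miR-29b is 1 base longer.

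The authors' build was mm9 and their tables hold no coordinates, so positions here are those of RefSeq in GRCm38.p6. The mir-29a hairpin lies at chr6:31062660-31062747 and the mir-29b-1 hairpin at chr6:31063023-31063093, both on the minus strand with 275 bases between them. The mir-29b-2 hairpin lies at chr1:195037040-195037120 and the mir-29c hairpin at chr1:195037547-195037634, both on the plus strand with 426 bases between them. In the annotation of that build, both chromosome 1 hairpins sit inside an exon of a retained-intron transcript of the noncoding gene A330023F24Rik, and opposite a UTR of Cd46. The mir-29b-1 hairpin partly overlaps an exon of the long noncoding RNA Gm27019, and mir-29a overlaps no other annotated gene. The hairpin of mir-29a, the source of most family reads, is shown with its arms in capitals, the star arm first.
mir-29a hairpin: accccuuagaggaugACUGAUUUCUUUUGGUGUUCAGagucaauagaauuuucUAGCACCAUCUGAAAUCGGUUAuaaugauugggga

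The libraries held 5570971 and 2685965 arm reads with thapsigargin, against 3857002 and 3633414 in controls. Of the 8 fibroblast and mesenchymal markers, 6 had reads under a single name, between 1759161 and 3325944 in each library. Most of these were miR-10b, which alone took 41.7% and 53.3% of arm reads with thapsigargin, against 35.7% and 56.6% in controls. The other markers, miR-199a-3p and miR-199b, occurred only in reads that carried more than 1 name and were not counted. Lists for embryonic stem cell, blood, epithelial, muscle and liver miRNAs held between 0 and 7 reads each per library. Control replicate 1 stood apart in the ends of its reads: of the 100 arms with most reads over all libraries, 97 or 98 began 1 base later in each other library. For the abundance, ratio and full-end results of the mature arms, values with the first base of its reads removed are given below.

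miR-29a made up nearly all of the family in every library, and no arm of the family changed past the test with thapsigargin. It had 10760 and 2461 reads with thapsigargin, against 7566 and 3929 reads in controls, and ranked between place 35 and place 42 among all arms. miR-29b had 296 and 97 reads with thapsigargin, against 212 and 159 reads in controls. miR-29c had 102 and 30 reads with thapsigargin, against 90 and 60 reads in controls. The order miR-29a, miR-29b, miR-29c was thus the same in 4 of 4 libraries. miR-29a took 96.4% and 95.1% of the mature family reads with thapsigargin, against 96.2% and 94.7% in controls. miR-29b took 2.65% and 3.75% with thapsigargin, against 2.69% and 3.83% in controls. miR-29c, which shares its hairpin cluster with one copy of miR-29b, took 0.914% and 1.16% with thapsigargin, against 1.14% and 1.45% in controls.

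Because a single base separates miR-29c from miR-29a, the base calls at position 10 were compared with those at other positions. Reads of either name with T at position 10 numbered 98 and 28 with thapsigargin, against 80 and 54 in controls. They were between 0.920% and 1.38% of the reads covering that base. At the 4 other C positions of miR-29a the largest share of T was 0.0757% and 0.0829% with thapsigargin, against 0.0540% and 0.104% in controls. Reads with A or G at position 10, which match neither paralogue, numbered 7 and 1 with thapsigargin, against 1 and 3 in controls. The miR-29c reads were therefore more frequent than miscalls measured at other C positions in 4 of 4 libraries.

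Levels were compared in CPM, counts brought to a common library size, after TMM scaling, which sets library sizes by the bulk of arms. Each read stands for a whole miRNA, so levels were not divided by length. miR-29a stood at 1738 and 1286 CPM with thapsigargin, against 1398 and 1202 CPM in controls. The groups overlapped, with means of 1512 ± 319 CPM with thapsigargin and 1300 ± 139 CPM in controls (SD, n = 2 each). Its log2 fold change was 0.22 (SE 0.45, 95% interval -0.80 to 1.24), with an adjusted p of 0.987 in the quasi-likelihood test of edgeR, adjusted by Benjamini-Hochberg over 310 arms. With library sizes taken as total arm reads the value was -0.10, so its sign depends on the scaling. That scaling moved the median log2 fold change of all tested arms to -0.36, against -0.0072 under TMM. Without thapsigargin replicate 1 the value was -0.06, and without thapsigargin replicate 2 it was 0.43.

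miR-29b stood at 47.8 and 50.7 CPM with thapsigargin, against 39.2 and 48.6 CPM in controls. Its log2 fold change was 0.17 (SE 0.49, 95% interval -0.96 to 1.29) and -0.14 with total reads as library sizes. miR-29c stood at 16.5 and 15.7 CPM with thapsigargin, against 16.6 and 18.3 CPM in controls. Its groups did not overlap, by a narrow margin, and its log2 fold change was -0.12 (SE 0.52, 95% interval -1.30 to 1.07). Both had an adjusted p of 0.987 in edgeR's quasi-likelihood test. The summed level of the 3 arms that share the seed was 1798 and 1349 CPM with thapsigargin, against 1450 and 1278 CPM in controls. Its log2 fold change was 0.21 (SE 0.46), or -0.10 with total reads as library sizes and -0.06 without thapsigargin replicate 1. With the first base of control replicate 1 removed it was 0.13, and the same step gave 0.18 for miR-29b and -0.09 for miR-29c.

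Star arms were scarce. miR-29a*, from the chromosome 6 cluster, had 29 and 7 reads with thapsigargin, against 19 and 18 reads in controls. Its log2 fold change was -0.07 (SE 0.65). miR-29c*, from the chromosome 1 cluster, had 18 and 3 reads with thapsigargin, against 17 and 13 reads in controls. It stood at 2.91 and 1.57 CPM with thapsigargin, against 3.14 and 3.98 CPM in controls, without overlap. Its log2 fold change was -0.57 (SE 0.66, 95% interval -2.08 to 0.94), and both star arms had an adjusted p of 0.987 in edgeR's quasi-likelihood test. The miR-29c* value was -1.20 without thapsigargin replicate 1 and -0.26 without thapsigargin replicate 2. miR-29b-1* had 3 and 0 reads with thapsigargin, against 4 and 1 in controls, and miR-29b-2* had 2 and 0 reads with thapsigargin, against 0 and 0 in controls. The last 2 arms were too low to be tested.

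**Figure D1:**
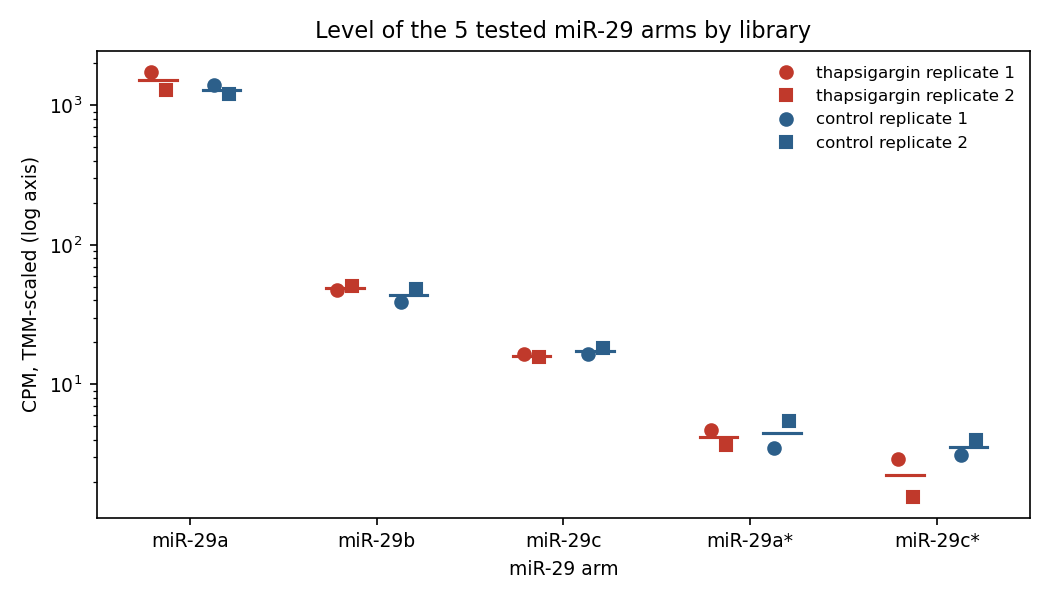
Level of each tested miR-29 arm in CPM after TMM scaling, on a log axis, by library, with thapsigargin left of control in each pair and a bar at the group mean (n = 2 each). The 3 mature arms and the star arms form a ladder with miR-29a at the top. The groups lie close together for the mature arms and miR-29a*, and furthest apart for miR-29c*.

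Of the 7 members 5 were tested, and 0 of them passed an adjusted p of 0.05 in either direction, where 0% of all 310 tested arms did in edgeR's quasi-likelihood test. At an unadjusted p under 0.05 that test called 12 arms (3.87%), none of them in the family. DESeq2 and limma-voom also called 0 arms after adjustment, with 15 and 13 at an unadjusted p under 0.05. Leaving out control replicate 2 brought 3 calls over all arms, and dropping the filter on low counts brought 3. Groups did not overlap for 2 of the 5 members, miR-29c and miR-29c*, beside 33.5% of all tested arms. In level the mature arms stood apart from each other by more than their spread over the 4 libraries. miR-29a* (3.51 to 5.50 CPM) and miR-29c* (1.57 to 3.98 CPM) were neighbours whose ranges overlapped. The authors' deposited table of 324 miRNAs gave log2 fold changes of 0.15 for miR-29a, 0.10 for miR-29b and -0.18 for miR-29c, each with an adjusted p of 1.

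Ratios between paralogues do not depend on library scaling. The log2 ratio of miR-29b to miR-29a was -5.18 and -4.67 with thapsigargin, against -5.16 and -4.63 in controls. Replicates of a group lay further apart than the groups, whose mean difference was -0.03 (exact two-sided permutation p = 0.667). The log2 ratio of miR-29c to miR-29a was -6.72 and -6.36 with thapsigargin, against -6.39 and -6.03 in controls, a difference of -0.33 (exact permutation p = 0.667). It was -0.22 with the first base of control replicate 1 removed. It was -0.14 without thapsigargin replicate 1, -0.15 without control replicate 2, and -0.51 without either of the other 2 libraries. Between same-numbered libraries the difference was -0.328 for replicate 1 and -0.325 for replicate 2, though the labels give the number no meaning. The log2 ratio of miR-29c to miR-29b was -1.54 and -1.69 with thapsigargin, against -1.24 and -1.41 in controls. This difference of -0.29, or -0.27 with the first base of control replicate 1 removed, left the groups without overlap, at an exact permutation p of 0.33. With 2 libraries against 2 that is the smallest p possible, here and in every comparison of groups below. As a share of miR-29b plus miR-29c reads, miR-29c made up 25.6% (95% interval 21.4 to 30.2) and 23.6% (16.5 to 32.0) with thapsigargin, against 29.8% (24.7 to 35.3) and 27.4% (21.6 to 33.8) in controls. These exact Clopper-Pearson intervals overlapped between the groups, and they cover counting error only.

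The share of star reads differed between hairpins far more than between groups. miR-29a* made up 0.269% and 0.284% of the star and mature reads of its hairpin with thapsigargin, against 0.250% and 0.456% in controls (exact permutation p = 1). miR-29c* made up 15% (95% interval 9.14 to 22.7) and 9.09% (1.92 to 24.3) with thapsigargin, against 15.9% (9.54 to 24.2) and 17.8% (9.84 to 28.5) in controls. The miR-29c* groups did not overlap while their intervals did (exact permutation p = 0.33). Their difference of -4.80 percentage points was -1.85 without thapsigargin replicate 2 and -7.76 without thapsigargin replicate 1. Within each library the star share of miR-29c exceeded that of miR-29a, by 14.1 ± 3.71 percentage points (SD, n = 4). The exact two-sided sign-flip p was 0.125, the smallest that 4 libraries allow and also the value after adjustment over 6 such comparisons of members. miR-29b-1* was set against all mature miR-29b reads, which mir-29b-2 also yields, so its share is not that of a single hairpin. On that basis miR-29b-1* made up 1.0% with thapsigargin in replicate 1, and 0 of 97 reads in replicate 2 (95% interval 0 to 3.73). In controls it made up 1.85% and 0.625%. Summed by cluster, star reads of chromosome 1 numbered 20 and 3 with thapsigargin, against 17 and 13 in controls. Star reads of chromosome 6 numbered 32 and 7 with thapsigargin, against 23 and 19 in controls. Chromosome 1 thus gave 38.5% (95% interval 25.3 to 53.0) and 30% (6.67 to 65.2) of these star reads with thapsigargin. In controls it gave 42.5% (27.0 to 59.1) and 40.6% (23.7 to 59.4), and the intervals overlapped. Its reads were miR-29c* apart from 2 reads in thapsigargin replicate 1, so this is not separate from the miR-29c* result. The log2 ratio of the clusters was -0.68 and -1.22 with thapsigargin, against -0.44 and -0.55 in controls, without overlap (exact permutation p = 0.33). The difference of -0.46 was -0.19 without thapsigargin replicate 2 and -0.73 without thapsigargin replicate 1.

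**Figure D2:**
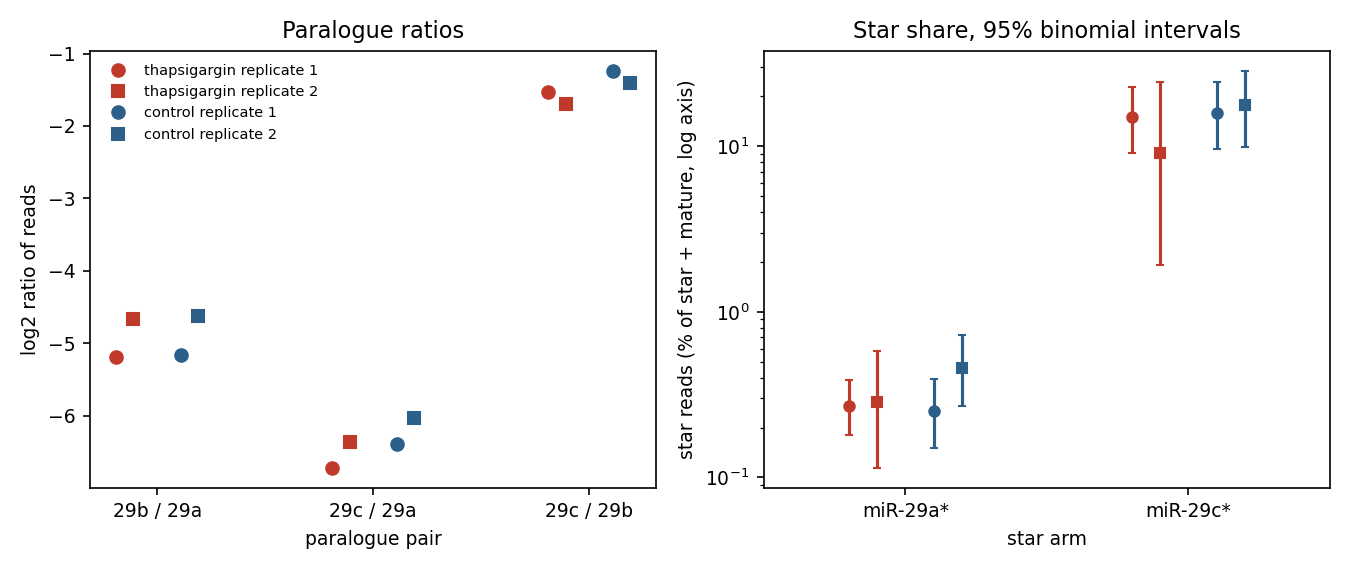
Left, log2 ratio of reads between paralogues in each library; right, star reads as a percent of star plus mature reads on a log axis with exact 95% binomial intervals, with thapsigargin left of control for each item. Replicate 1 and replicate 2 of both groups lie apart in the ratios to miR-29a, and miR-29c* lies above miR-29a* in 4 of 4 libraries.

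The position at which reads begin sets which bases form the seed. The commonest read of each mature arm began at RefSeq base 2 in 3 libraries and at RefSeq base 1 in control replicate 1, as the reads of miR-29a show, with RefSeq base 1 in a capital.
thapsigargin replicates and control replicate 2: agcaccatctgaaatcggtta
control replicate 1: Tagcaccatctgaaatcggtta
The first sequence had 3730 and 772 reads with thapsigargin and 1436 in control replicate 2, and the second had 3141 reads in control replicate 1. Read by position, bases 2 to 8 are GCACCAU in the first and AGCACCA in the second. The same 1-base shift of control replicate 1 was seen for miR-29b, miR-29c and miR-29a*, so it separated 1 library from the other 3 and not the groups. As it spans 97 or 98 of 100 abundant arms, it is not particular to the family. Whether the bases at the start of a read are those of the miRNA in the cell or reflect how the reads were handled was not tested, and no change of seed is read from it.

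In every library miR-29a also had a less frequent form that began 1 base before its commonest start. Its commonest sequences were the following, with the additional base in a capital.
thapsigargin replicates and control replicate 2: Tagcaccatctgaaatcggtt
control replicate 1: Ctagcaccatctgaaatcggtt
This earlier form made up 13.0% and 12.5% of the reads at both starts with thapsigargin, against 12.6% and 14.2% in controls (exact permutation p = 0.667). In control replicate 1 all 1084 reads of the form stood in the authors' precursor table and not in the mature table. Counting precursor-table reads that lie on the arm brought miR-29a there from 7566 to 8657 reads, and in the other libraries added at most 6. Taking the first base off every read of control replicate 1 and assigning the result as in the other libraries lowered the log2 fold change of miR-29a to 0.13.

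**Figure D3:**
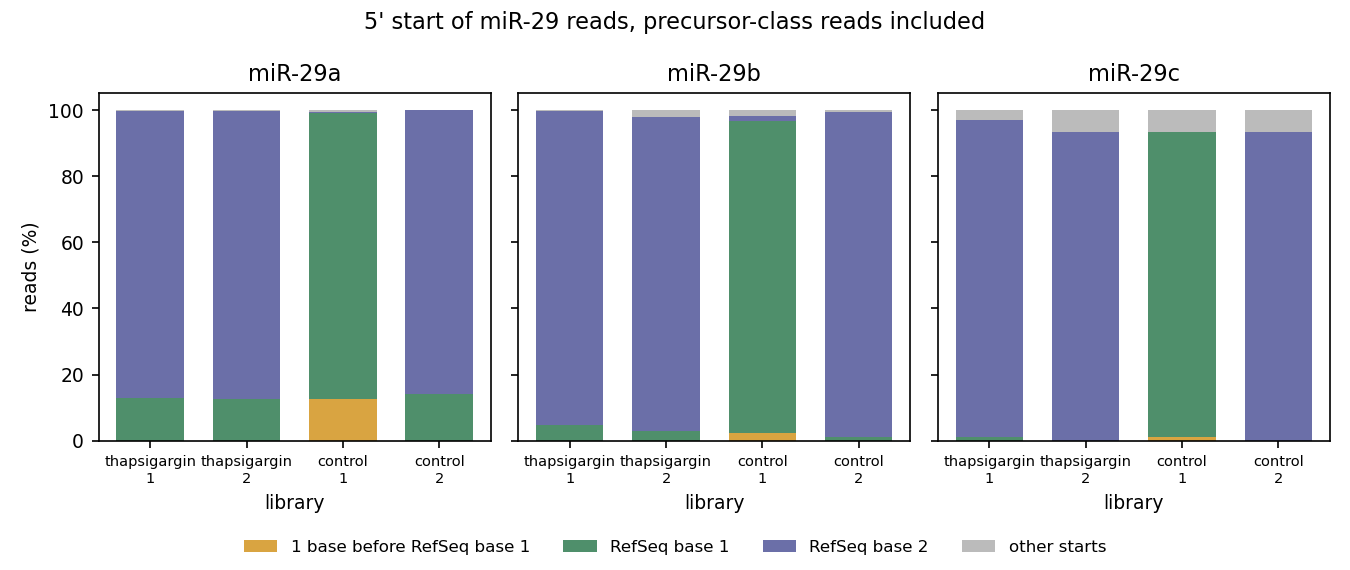
Share of reads by 5′ start for the 3 mature arms in each library, thapsigargin left of control, counted from RefSeq base 1 and with precursor-table reads included. The commonest start is RefSeq base 1 in control replicate 1 and base 2 in the other 3 libraries, and the earlier form is most frequent in miR-29a.

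The earlier form was rarer in the other paralogues. miR-29b had it in 4.75% and 3.16% of reads with thapsigargin, against 2.38% and 1.27% in controls, without overlap (exact permutation p = 0.33). These shares rest on 14 and 3 reads with thapsigargin, against 5 and 2 reads in controls. miR-29c had 1 and 0 such reads with thapsigargin, against 1 and 0 in controls. The miR-29a share exceeded that of miR-29b in 4 of 4 libraries, by 10.2 ± 2.0 percentage points (SD, n = 4, exact sign-flip p = 0.125). The 2 arms also differ in length. An earlier form of miR-29b with its full 3′ end would have 23 bases in the libraries other than control replicate 1, a length that held between 0.631% and 1.11% of all reads there. The part of read length in the difference between the arms was not tested. Among reads that ended 1 base short, the earlier form made up 15.2% and 30.0% of miR-29b with thapsigargin, against 19.0% and 14.3% in controls. That was 5 of 33 and 3 of 10 reads with thapsigargin, against 4 of 21 and 1 of 7 in controls. For miR-29a at that end the earlier form made up 19.7% and 19.7% with thapsigargin, against 18.6% and 21.3% in controls. The miR-29a values lay inside the range of miR-29b, but the few miR-29b reads cannot show whether the arms differ at that end. At the full end no miR-29b read had the earlier start, out of 222 and 80 with thapsigargin and 167 and 138 in controls. For miR-29a at the full end the earlier start made up 6.30% and 4.81% with thapsigargin, against 6.74% and 8.24% in controls.

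At the 3′ end, miR-29a was split almost evenly between the full RefSeq end and an end 1 base short, whereas miR-29b mostly kept its full end. Among reads with the commonest start and one of these ends, the full end of miR-29a made up 51.6% and 53.1% with thapsigargin, against 53.5% and 56.9% in controls. For miR-29b it made up 88.8% and 92.0% with thapsigargin, against 90.8% and 95.8% in controls. For miR-29c it made up 66.7% and 64.7% with thapsigargin, against 68.9% and 73.7% in controls. The order miR-29b, miR-29c, miR-29a held in 4 of 4 libraries. miR-29b exceeded miR-29a by 38.1 ± 0.953 percentage points and miR-29c exceeded it by 14.7 ± 2.21 (SD, n = 4, exact sign-flip p = 0.125 each).

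The start and the end of miR-29a went together. Reads with the earlier start were counted where they ended at the full end or 1 base short. The full end made up 22.7% and 18.9% of these with thapsigargin, against 26.7% and 30.5% in controls. That was below the commonest start form of the same library in 4 of 4 libraries, with a mean difference of -29.1 ± 3.59 percentage points (SD, n = 4, exact sign-flip p = 0.125). The earlier form thus kept a length of 21 bases most often, 22 in control replicate 1, the same length as the commonest read. That length was also the commonest over all reads of each library, at 61.7% and 67.7% with thapsigargin, against 61.9% and 69.9% in controls. The part of read length in this link of start and end was not tested.

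**Figure D4:**
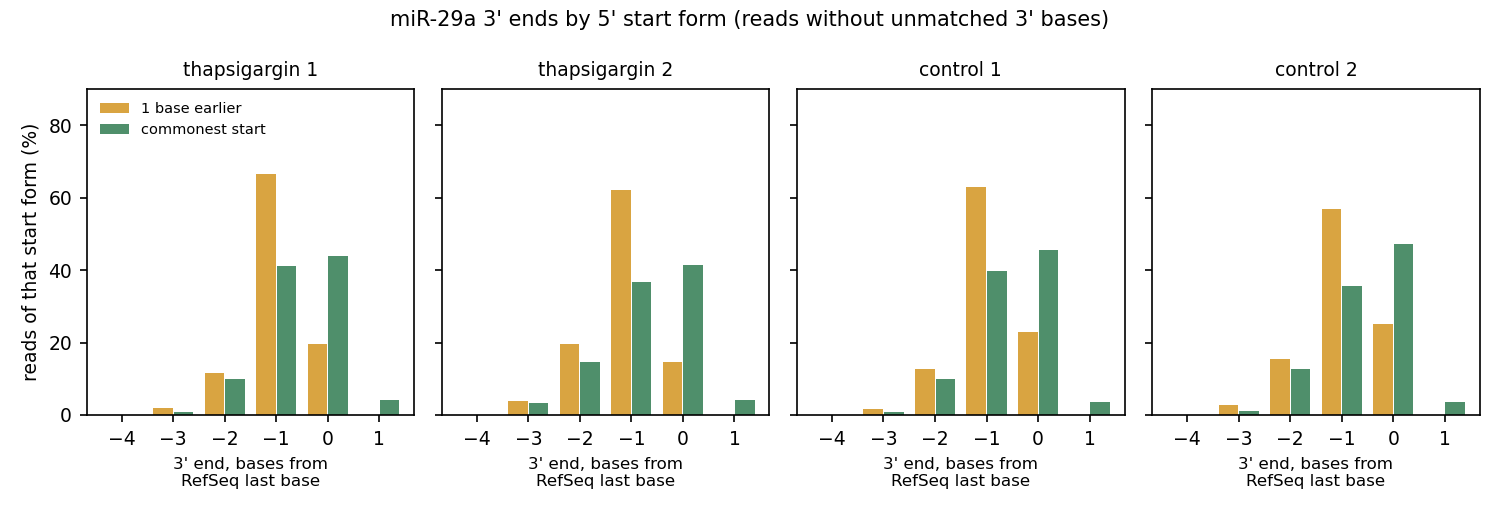
Percent of miR-29a reads by 3′ end, counted in bases from the last RefSeq base, for reads with the earlier start (left bar) and the commonest start (right bar), in each library with thapsigargin left of control. The earlier form peaks 1 base before the RefSeq end in all 4 libraries, where the commonest form is highest at the RefSeq end.

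Over mature-table reads without unmatched 3′ bases, the full end of miR-29a was less frequent with thapsigargin, 40.7% and 38.1%, against 45.7% and 44.0% in controls. In control replicate 1 this leaves out the earlier form, whose full-end share there was 22.9%, while the other libraries include theirs. The groups did not overlap, and the difference was -5.41 percentage points (exact permutation p = 0.33). It was -3.98 with the first base of control replicate 1 removed, a step that brings its earlier form into the count. For miR-29c the shares were 57.3% and 55.0% with thapsigargin, against 57.5% and 65.1% in controls, also without overlap (exact permutation p = 0.33). Its difference of -5.17 percentage points was -5.57 with the first base removed, -1.38 without control replicate 2 and -8.96 without control replicate 1. With distinct reads of at least 2 copies it was -1.05 (exact permutation p = 0.667). For miR-29b they were 78.5% and 86.2% with thapsigargin, against 85.2% and 90.8% in controls, and the groups overlapped. Its difference of -5.69 was -4.54 with the first base removed, and between -9.51 and -1.87 on leaving out each library. The mean difference lay below 0 for the 3 arms, and none of these comparisons can reach 0.05 with 2 libraries a group.

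Some reads carried 1 base after the full end that does not match the hairpin. In miR-29a these were 3.43% and 5.79% of reads with thapsigargin, against 4.09% and 4.13% in controls. In miR-29c they were 8% and 20% with thapsigargin, against 10.5% and 15.5% in controls, from 8 and 6 reads with thapsigargin and 9 and 9 in controls. The base differed between libraries. In miR-29c it was mostly A in thapsigargin replicate 1 (6 reads), C in thapsigargin replicate 2 (6 reads) and mostly C in controls (8 and 7 reads). With all bases pooled, miR-29c exceeded miR-29a in 4 of 4 libraries, by 9.14 ± 4.44 percentage points (SD, n = 4, exact sign-flip p = 0.125). miR-29b had none, but its full end at the commonest start already takes 22 bases, or 23 in control replicate 1, which was also its longest read.

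To place miR-29a among other arms, the pattern of its level over the 4 libraries was compared with that of 111 arms of at least 100 CPM outside the family. The measure was the root mean square difference of centred log2 CPM, where 0 is an identical pattern and the median of the 111 arms was 0.46. The 5 nearest were miR-23a at 0.13, miR-378 at 0.15, miR-151-5p at 0.15, miR-93 at 0.15 and miR-210 at 0.16. miR-23a, for example, stood at 1633 and 1072 CPM with thapsigargin, against 1423 and 1255 CPM in controls. These are 4 libraries only, and the ranking is a description.

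A list of 29 other miRNAs reported in matrix regulation and fibrosis had reads under a single name for 25 and tests for 21. Of these 14 lay above 0 and 7 below, and 0 passed an adjusted p of 0.05 in edgeR's quasi-likelihood test. Their median log2 fold change was 0.08, where 155 of the 310 tested arms (50%) lay above 0 and the median was -0.0072. The largest values among those with a mean count of at least 50 were 0.92 for miR-101a (SE 0.51), which targets the histone methyltransferase Ezh2, and 0.84 for miR-143 (SE 0.48), a miRNA of smooth muscle and mesenchymal cells. They were followed by 0.70 for miR-19a (SE 0.60), of the miR-17-92 cluster, and -0.59 for miR-30c (SE 0.52).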

How the data were processed

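Small RNA libraries were made from total RNA with a ligation-based kit, per the labels' protocols. Per the submitters' processing notes, CASAVA 1.8.1, cutadapt, Bowtie and DESeq 1.4.1 were used with build mm9. No source used here gives their order or settings. Whole-number counts were deposited by the authors, who give each distinct read with its count and miRNA names in mature, star, predicted star and precursor tables. Percent columns in the deposited summaries repeat these counts relative to all reads and were not used. A log2 fold change and p-value per miRNA come from the authors' deposited table.

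Reads with 1 name were summed per arm from the read tables of 4 libraries. The deposited mature summary of thapsigargin replicate 2 matched its read table for 15 of 445 names and was not used. Library sizes were 5570971 and 2685965 arm reads with thapsigargin and 3857002 and 3633414 in controls, so 3 reads, taken as the limit of detection, are between 0.539 and 1.12 CPM before TMM scaling. edgeR 4.0.16 in R 4.3.3 fitted all arms passing filterByExpr (minimum count 10) with TMM scaling. Its two-sided quasi-likelihood test was adjusted by Benjamini-Hochberg, at 0.05. DESeq2 1.42.0 and limma 3.58.1 (voom) were alternatives. Reads were placed without gaps on RefSeq hairpins, within 8 bases of the RefSeq start. The fit and the placement were tested on simulated data. Ratios and shares were compared by exact permutation over libraries, and members by exact sign flips within libraries, with intervals by Clopper-Pearson (scipy 1.17.1).

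Members, gene lists and tests were chosen with earlier results of these data known. Named arms were all family arms, the 5 arms nearest in pattern to miR-29a, and the 4 listed fibrosis-linked arms with the largest absolute change at a mean count of at least 50. The comparisons of members within libraries, and the reads at a fixed 3′ end, were added after the data were seen.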

Additional observations from a re-analysis of the deposited data

How the results depend on the processing

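No miR-29 arm tested in the main fit passed an adjusted p of 0.05 under any alternative run, and adjusted p-values over them were at least 0.735. The alternatives were not read for miR-29b-1* and miR-29b-2*, which the main fit left untested. The count of arms called over the whole table was 3 without the filter on low counts, and between 0 and 3 when each library was left out. It was 6 with the replicate block and the first base of control replicate 1 removed, an alternative chosen after seeing the data. The replicate block alone called 0 arms, with 29 at an unadjusted p under 0.05. Replicate numbers are shared by the groups without a stated meaning, and same-numbered libraries deviated together (correlation 0.56 over 310 arms, from 2 pairs). With the block miR-29a* turned to 0.0036, and to 0.026 with the first base of control replicate 1 removed as well. With total reads as library sizes the log2 fold change was -0.10 for miR-29a, -0.14 for miR-29b and -0.10 for the summed mature arms. Leaving out each library gave -0.064 to 0.43 for miR-29a, -0.37 to 0.25 for miR-29a* and -0.057 to 0.42 for the sum. The log2 ratio of miR-29b to miR-29a differed between groups by 0.056 with the first base of control replicate 1 removed, by 0.045 with reads of at least 20 bases, and by 0.048 with precursor-table reads counted, a choice made after seeing the data. It ranged from -0.30 to 0.23 on leaving out each library. Differences in percentage points on leaving out each library ranged from -0.180 to 0.0257 for the miR-29a* share, 0 to 0.671 for the miR-29b-2* share, -12.2 to 1.27 for the commonest start of miR-29a, -1.45 to 0.143 for its earlier form, 0 to 2.75 for the commonest start of miR-29c and -0.671 to 0.505 for its earlier form. The commonest start of miR-29a differed by -5.46 with all libraries, and by 0.470 with the first base removed. Its share was 86.7% and 87.4% with thapsigargin, against 99.2% and 85.7% in controls. In control replicate 1 that share leaves out the earlier form, whose reads stood in the precursor table. With distinct reads of at least 2 copies, the commonest start of miR-29c differed by -0.255 and its earlier form by 0. The miR-29c to miR-29b ratio, the miR-29c* share, the cluster ratio and the full-end shares kept their sign under every alternative run, while their size moved. On leaving out each library the ratio ranged from -0.38 to -0.21, the miR-29c* share from -7.76 to -1.85, the cluster ratio from -0.73 to -0.19, and the full-end share from -6.72 to -4.11 for miR-29a, -9.51 to -1.87 for miR-29b and -8.96 to -1.38 for miR-29c. The log2 fold change of miR-29b ranged from 0.02 to 0.29, of miR-29c from -0.20 to -0.07 and of miR-29c* from -1.20 to -0.26, and the miR-29c to miR-29a ratio from -0.51 to -0.14. The cause of these changes was not tested. The precision of star arms and miR-29c is limited by counts of 0 to 102 reads a library.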

Other observations

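The unused mature summary of thapsigargin replicate 2 gave 77 reads to miR-29a, 0 to miR-29b and 3 to miR-29c, against 2461, 97 and 30 reads in the read tables of the same library. In the other 3 libraries the summary and the read tables gave the same counts for these 3 arms.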
